A study of Mus musculus with 2 samples.

Results

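Fibroblasts of the pancreatic islet were recovered as 85 of 9897 quality-filtered cell barcodes from 2 single-cell RNA libraries of mouse islets. A barcode was taken as a fibroblast if it held at least 1 unique molecular identifier (UMI, the tag that counts 1 captured transcript) in 4 or more of 6 genes, namely Dcn, Lum, Col1a1, Col1a2, Col3a1 and Pcolce. It also had to hold at least 500 genes, at most 20% mitochondrial UMIs and under 40% of its UMIs from Ins1 and Ins2, with no maximum of UMIs. The members were thus chosen by measured values of these 6 genes, and their levels are a description of the choice. Of the members, 61 came from the wild-type (WT) library and 24 from the high-fat diet (HFD) library. Both libraries came from islets of male C57/B6 mice aged 16 weeks. The HFD mice had been moved, when 6 weeks old, to a diet that drew 60% of its energy from fat and ate it over 10 weeks, while the study's methods give standard chow for mice kept off that diet and the labels name no WT diet. No transgene or deletion was named for either group. Islets of 4 mice were pooled in each group, dispersed and depleted of dead cells with a kit, so single mice could not be separated. Each group held 1 library. Diet, preparation and library therefore cannot be told apart, no test was made between the groups, and every interval covers counting error only.

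Fibroblasts of the pancreas build and remodel the interstitial matrix around acini, ducts, vessels and islets, and secrete collagens, proteoglycans and microfibril proteins. They also release chemokines that draw monocytes and neutrophils when tissue is disturbed. Pancreatic stellate cells are perivascular relatives that store retinoids at rest and, once activated, take on contractile proteins such as smooth muscle actin. Pericytes of islet capillaries share part of that contractile program and are marked by Rgs5, a regulator of G-protein signalling.

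Fibroblasts made up 2.35% of the 2600 kept WT barcodes (61; exact 95% Clopper-Pearson interval 1.80% to 3.0%). In the HFD library they made up 0.329% of 7297 (24; interval 0.211% to 0.489%). Endothelial barcodes, gated on at least 4 endothelial markers, also took a smaller share of the HFD library, with 172 in WT (6.62%) and 157 in HFD (2.15%). Beta barcodes, those with at least 40% insulin UMIs, numbered 1955 and 6342, so the denominators consisted mostly of beta cells. The WT fibroblasts held 344346 UMIs in all and the HFD fibroblasts 53897. The median member held 5543 UMIs in WT (range 1167 to 29517) and 2034 in HFD (range 1267 to 5028), over 2028 and 1008 genes. The HFD median lay closer to the minimum of 500 genes, and how many fibroblasts fell under that minimum was not tested. The libraries shared 9 barcodes, none of which was a member of either.

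**Figure D1:**
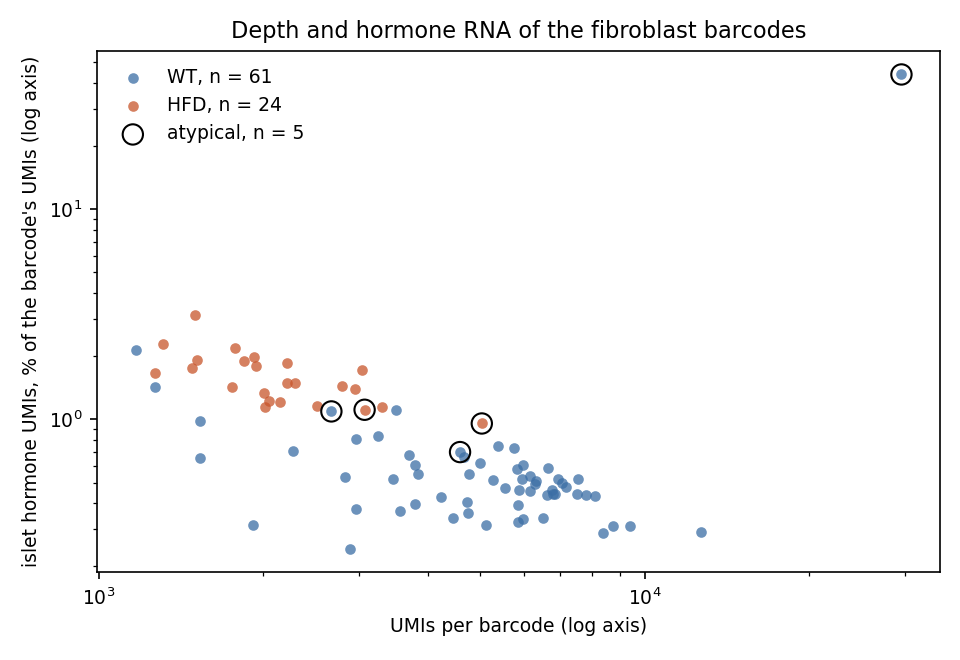
Each point is 1 fibroblast, with its UMIs on the horizontal log axis and the share of those UMIs from islet hormone genes, in percent, on the vertical log axis; colours give the library and rings the 5 atypical members. HFD points sit at fewer UMIs and higher hormone shares (median 1.49%) than WT points (0.497%), and 1 ringed WT point stands alone at 43.8%.

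Members near the edge of the rule were few. Of the WT members, 55 held all 6 genes and 6 held 5, and of the HFD members 21 held 6 and 3 held 4. Just outside the rule, 9 WT barcodes held 3 of the genes and none of them a Dcn UMI, and 5 HFD barcodes held 3, 1 of them with 26 Dcn UMIs, close to the HFD member median. Of the 3 HFD members that held 4 genes, 2 belonged to the atypical set described further on. A further 6 WT and 2 HFD barcodes held 4 or more of the genes but had insulin shares over the limit, the lowest at 42.4% and 46.6%. Dcn UMIs per member ranged from 3 to 157 in WT (median 81.0) and from 4 to 46 in HFD (median 28.5).

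Of 13 fibroblast markers, 6 were the selecting genes, and the other 7 were read apart from them. All 7 had UMIs in both libraries. Gsn, the actin-severing protein gelsolin, was found in 61 of 61 WT and 24 of 24 HFD members, Serping1, the C1 inhibitor, in 60 and 23, and Col6a1, of the beaded type VI filaments, in 59 and 20. Col6a2, its partner chain, was found in 56 and 20, Fstl1, a secreted BMP-binding glycoprotein, in 48 and 6, the gelatinase Mmp2 in 42 and 10, and the growth factor receptor Pdgfra in 37 and 8. Markers of other cell types and of stellate activation were also checked. Macrophage markers numbered 4 of 10 and 2 of 10, with at most 1 in any member, and the T cell list was at 0 in WT and had 4 UMIs in HFD, where 1 member held 3 of its genes. Mesothelial markers were at 0 in HFD, and 1 of 6 had 3 UMIs in WT. Cthrc1 and Lrrc15, which mark matrix-activated fibroblasts, had no UMI in any member. A count of 0 was read against a set floor of 3 UMIs. This floor is 8.71 CPM (the UMIs of a gene scaled to 1e+06 UMIs) over the WT members and 55.7 CPM over the HFD members. Postn, which encodes the matricellular protein periostin and is high in activated fibroblasts, had 2 UMIs in each library. Cthrc1 and Lrrc15 belong to a list of 19 activated stellate and myofibroblast genes, of which the other 17 had UMIs. The list summed to 3151 CPM in the WT and 2078 CPM in the HFD members. Without the atypical members described further on, it summed to 2334 and 1921 CPM. Cthrc1, Lrrc15 and Postn did not bear out the label of activated stellate cells, but the list as a whole does not decide it. The members are called fibroblasts here.

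A few members carried hormone, endothelial or stellate and pericyte RNA above set limits. The counts of calls between the libraries are given with and without them, as are ratios that changed. This atypical set was defined after seeing the data, by at least 10% hormone UMIs, at least 4 endothelial markers or at least 6 stellate or pericyte markers. In WT it took 3 members. One held 29517 UMIs, the most of any member, with 43.8% hormone UMIs, and the others held 6 and 7 stellate or pericyte markers. In HFD it took 2 members, with 8 and 9 endothelial markers. The remaining 58 WT and 22 HFD fibroblasts held at most 2.14% and 3.13% hormone UMIs, at most 1 endothelial marker and no UMI of Rgs5. Acinar markers were not part of this definition. The remaining fibroblasts held up to 10 of 11 acinar markers in WT (median 4) and up to 11 in HFD (median 5).

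Genes that set the fibroblasts apart from all other kept barcodes of their own library were described by a ranking of ratios. Genes with at least 100 CPM in both libraries (1163) were ranked by the lower of the WT and HFD ratios of member CPM to other-barcode CPM. Since the members were chosen on 6 of these genes, no test was made. Lum, the keratan sulphate proteoglycan lumican, ranked 1, Dcn 8, Col1a1 21, Col1a2 30, Col3a1 31 and Pcolce, the enhancer of procollagen C-proteinase, 44. The genes that the rule had not used and that stood highest were Mfap4, Itgbl1, Mmp3, Smoc2, Igfbp6 and Fbln1. Mfap4, a protein of elastic microfibrils, reached 784 CPM in WT fibroblasts and 631 CPM in HFD fibroblasts, 8007-fold and at least 19497-fold above the other barcodes. Igfbp6, which binds insulin-like growth factor II, stood at 1856 and 1540 CPM, 6633-fold and 35697-fold above them. Fbln1, the elastic fibre protein fibulin-1, stood at 1089 and 1132 CPM.

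Receptors, enzymes and inhibitors also stood among the 20 highest genes of that ranking. Pdgfra, the platelet-derived growth factor receptor that marks fibroblasts against pericytes, stood at 215 CPM in the WT and 204 CPM in the HFD fibroblasts, and had no UMI in endothelial barcodes of either library. Hsd11b1, which regenerates active glucocorticoid, stood at 926 and 1076 CPM. Serpinf1, the secreted pigment epithelium-derived factor, stood at 1641 and 1540 CPM. Ptgis, the synthase of prostacyclin, was at 549 and 464 CPM, and Mmp2 at 398 and 297 CPM. These values lie close to each other across the libraries, and none of the genes passed the call described further on.

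Shares of barcodes with a selecting gene describe the choice and support nothing further. After thinning to 1000 UMIs each, Dcn was found in 60 of 61 WT and 24 of 24 HFD fibroblasts, and in 0 of 169 and 0 of 151 endothelial barcodes, whose median depths were 6856 and 3477 UMIs. A share of 0 there has an upper exact 95% bound of 2.16% in WT and 2.41% in HFD. Lum gave the same picture, with UMIs in 50 of 61 and 19 of 24 thinned fibroblasts and in none of the endothelial or macrophage barcodes.

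**Figure D2:**
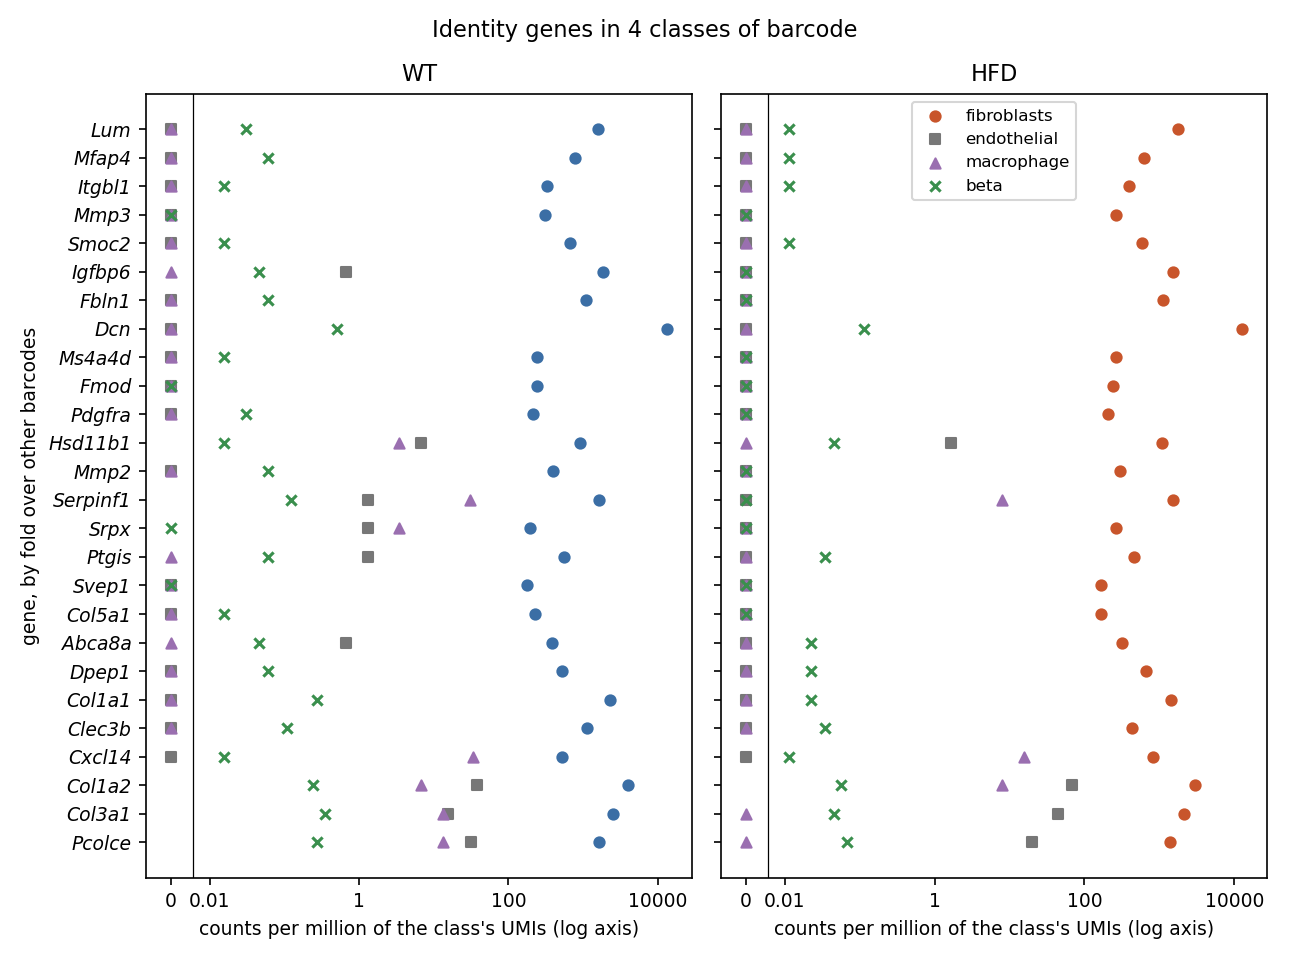
Each row is 1 gene. Shown are the 20 highest identity genes outside the rule, Clec3b and Cxcl14 among them, and the selecting genes. Points give CPM on a log axis (0 drawn left of the line) in fibroblasts, endothelial, macrophage and beta barcodes of the WT and HFD libraries. Fibroblast points lie right of all others, with Dcn at 13527 and 12784 CPM and at 0 in endothelial barcodes.

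Not every identity gene was shared by all fibroblasts. Igfbp6 had UMIs in 59 of 61 WT and 17 of 24 HFD fibroblasts. Mfap4 was found in 37 and 10 of them, and Smoc2, a calcium-binding matricellular protein, in 31 and 11. Mmp3, the matrix metalloproteinase stromelysin-1, ranked high through few cells. It was found in 11 WT and 3 HFD fibroblasts, and 1 member held 54 of its 108 WT UMIs and another 12 of its 14 HFD UMIs. Fmod, the collagen-binding proteoglycan fibromodulin, was found in 19 and 6 fibroblasts, at 241 CPM in both libraries.

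Chemokine and cytokine transcripts were the most unevenly spread. The list of inflammatory cytokines and chemokines took a median of 0.344% of the UMIs of a WT fibroblast outside the atypical set, with a range from 0 to 11%. In HFD the median was 0.373% and the range from 0 to 2.89%. Cxcl1, a chemokine for neutrophils, was found in 35 of 61 WT fibroblasts, with a median of 320 CPM and a maximum of 24955 CPM. Ccl2, the chief chemokine for monocytes, was found in 13 of 61 and reached 41715 CPM in 1 fibroblast, which held 46.8% of all WT Ccl2 UMIs. Ccl7, a monocyte chemokine encoded next to Ccl2, was found in 15 of 61, and Il6, the cytokine interleukin-6, in 22 of 61. Ccl11, the eosinophil chemokine eotaxin, was found in 20 of 61. In HFD the same genes were found in 10 (Cxcl1), 10 (Ccl2), 8 (Ccl7), 4 (Il6) and 12 (Ccl11) of 24 fibroblasts. Cxcl14, a chemokine that resting fibroblasts make, was found in 36 of 61 and 10 of 24 and stood among the identity genes, at 529 and 816 CPM.

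Several of these genes were found in the same WT fibroblasts. Of the 35 fibroblasts with Cxcl1, 14 also held Ccl7, 12 held Ccl2, 19 held Il6 and 7 held Cxcl2, another neutrophil chemokine. Of the 23 without Cxcl1 outside the atypical set, 1 held Ccl7, 1 held Ccl2, 3 held Il6 and 0 held Cxcl2. Deeper barcodes detect more genes, and the fibroblasts with Cxcl1 held a median of 5866 UMIs against 3837 without, so these counts are a description. Il6 and Ccl7 went together as well, with 12 of 22 Il6-holding and 3 of 36 other fibroblasts holding Ccl7, at median depths of 5910 and 5070 UMIs. Ccl11 did not follow Ccl2, since 3 of 13 fibroblasts with Ccl2 and 16 of 45 without it held Ccl11. It was more frequent beside Ccl7, in 9 of 15 WT fibroblasts with Ccl7 and 10 of 43 without it. In HFD these counts were 6 of 7 and 4 of 15. In HFD, 5 of the 8 fibroblasts with Cxcl1 and 3 of the 14 without it held Ccl2. The pairing of Il6 with Ccl7 was not seen there, since 1 of 4 HFD fibroblasts with Il6 and 6 of 18 without it held Ccl7.

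Cxcl1, Cxcl2 and Il6 are textbook targets of NF-kB, the transcription factor of inflammatory signalling, and the 250 bases before each start are shown because the 3 transcripts met in the same fibroblasts. The sequences are from RefSeq on GRCm38.p6, the mm10 assembly, on the plus strand of chromosome 5. Capitals mark every match to the NF-kB consensus, searched on both strands. The windows are chr5:90890995-90891244 for Cxcl1, chr5:90903649-90903898 for Cxcl2 and chr5:30012864-30013113 for Il6.
Cxcl1: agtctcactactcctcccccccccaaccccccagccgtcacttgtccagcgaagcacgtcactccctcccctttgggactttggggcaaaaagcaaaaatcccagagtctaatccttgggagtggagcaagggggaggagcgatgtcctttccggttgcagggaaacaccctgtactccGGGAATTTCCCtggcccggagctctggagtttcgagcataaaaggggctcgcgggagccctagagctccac
Cxcl2: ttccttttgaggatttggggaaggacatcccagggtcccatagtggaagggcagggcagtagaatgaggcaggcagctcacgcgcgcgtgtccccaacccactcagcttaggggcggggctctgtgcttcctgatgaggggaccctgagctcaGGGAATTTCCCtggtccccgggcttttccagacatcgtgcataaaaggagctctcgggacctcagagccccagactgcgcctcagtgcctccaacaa
Il6: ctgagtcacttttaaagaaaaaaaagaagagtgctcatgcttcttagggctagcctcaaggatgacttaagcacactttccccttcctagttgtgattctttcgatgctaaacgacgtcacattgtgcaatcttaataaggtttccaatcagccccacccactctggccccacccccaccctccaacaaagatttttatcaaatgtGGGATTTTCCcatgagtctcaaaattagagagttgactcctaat
In Cxcl1 the match runs from 71 to 62 bases before the start, and a second match on the minus strand, from 70 to 61, overlaps it. Cxcl2 holds the same overlapping pair at 97 to 88 and 96 to 87 bases, and Il6 holds 1 match at 44 to 35 bases. Of 32851 mouse promoter windows of this length, 1281 (3.9%) held such a match. A match is a string of letters and does not show binding.

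**Figure D3:**
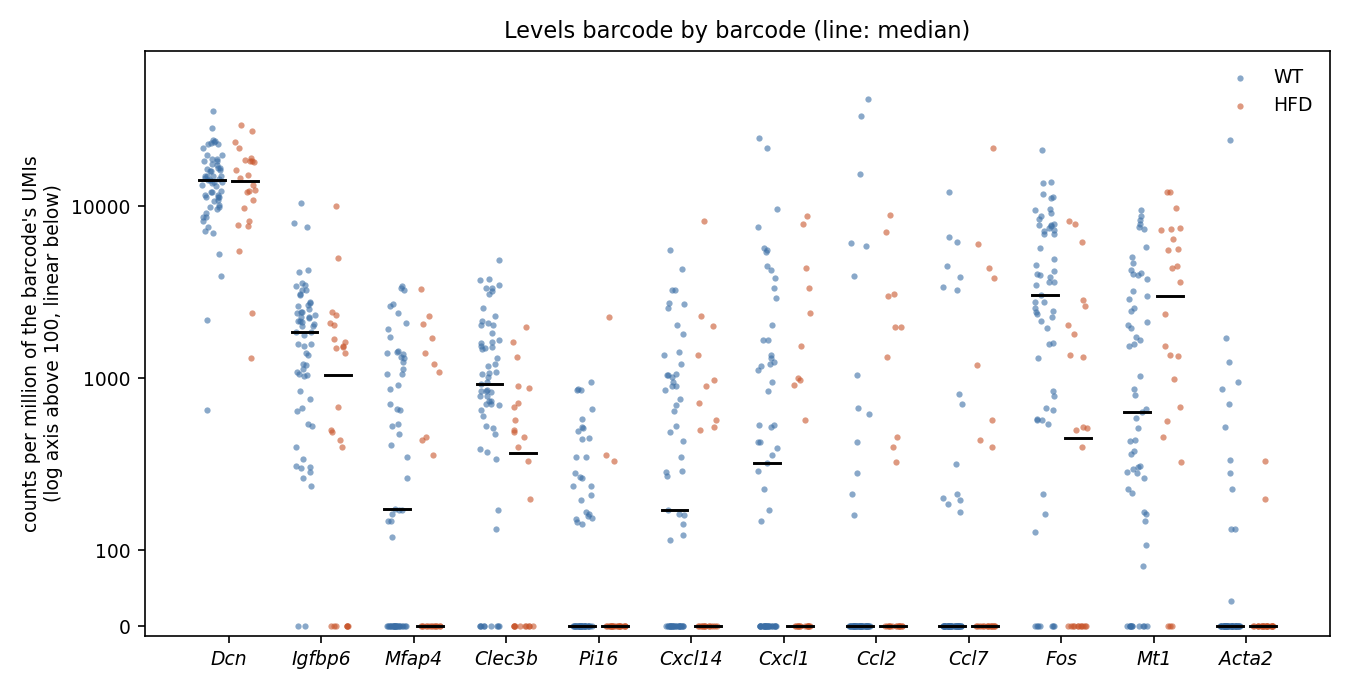
Each point is 1 fibroblast of the WT or HFD library, with CPM of its own UMIs on an axis that is logarithmic above 100 and linear below, and black lines give medians. Dcn has no fibroblast at 0, whereas Ccl2 and Ccl7 have medians of 0 and single fibroblasts at up to 41715 and 21901 CPM.

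Markers of adventitial fibroblasts, which ensheath vessels, were present but did not split the fibroblasts cleanly. Pi16, a peptidase inhibitor of this state, was found in 27 of 61 WT and 3 of 24 HFD fibroblasts. Thinned to 1000 UMIs, these shares were 14.8% (interval 6.98% to 26.2%) and 4.17% (0.105% to 21.1%), and the intervals overlap. Pi16 stood at 209 and 130 CPM and was not called. In the HFD fibroblasts 1 member held 71.4% of the Pi16 UMIs. Cd34, a sialomucin of adventitial fibroblasts that endothelial cells also express, was found in 40 and 9 fibroblasts. In WT, 21 of 26 fibroblasts with Pi16 and 18 of 32 without it held Cd34 (atypical members left out), and 18 and 15 of them held Mfap5, a microfibril glycoprotein. Unsupervised clustering without the 6 selecting genes placed the fibroblasts in 5 groups at resolution 1 and 3 at resolution 0.5. Each of the 5 held both libraries, with 11 to 13 WT and 3 to 7 HFD fibroblasts, whereas 1 of the 3 groups at resolution 0.5 held 7 WT and 0 HFD fibroblasts. Genes such as Ccl2, Has1 (a hyaluronan synthase) and Ccl7 led separate groups, and the groups are left unnamed.

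Contractile and pericyte genes were sparse. Acta2, smooth muscle actin, was found in 13 of 61 WT and 2 of 24 HFD fibroblasts, and 1 atypical WT member held 73.5% of its 151 WT UMIs. Pdgfrb, the receptor of pericytes and stellate cells, was found in 26 and 2 fibroblasts, at 95.8 and 37.1 CPM. Des, the intermediate filament protein desmin of stellate cells, was found in 32 and 10, at 276 and 241 CPM. Gfap and Lrat, which mark retinoid-storing stellate cells, had no UMI. Rgs5 had no UMI outside the atypical set.

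For the comparison of HFD with WT, UMIs were summed over the members of each library, and a gene counted as measured with at least 20 UMIs in all and a mean of at least 50 CPM. A gene was called if it was at least 2-fold higher or lower with its 95% counting interval wholly on that side of 1. Over all 2529 measured genes, 127 (5.02%) were called higher and 59 (2.33%) lower in HFD, with a median log2 ratio of 0.07. Without the atypical members 2379 genes were measured, of which 91 (3.83%) were higher and 47 (1.98%) lower, with a median of -0.03. The sets had 75 higher and 33 lower genes in common. Of the calls over all members, 12 higher and 14 lower genes had 50% or more of their UMIs in 1 fibroblast of the library in which they were higher.

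The levels of the 6 selecting genes are a description, since the members were chosen on them, and 5 of the 6 were lower in HFD without reaching the 2-fold call. Dcn stood at 13527 CPM in the WT and 12784 CPM in the HFD fibroblasts, a log2 ratio of -0.08 (-0.20 to 0.03). Per fibroblast its median was 14099 CPM (range 654 to 35758) in WT and 13903 CPM (range 1304 to 29782) in HFD, and the ranges overlap. Col1a1, the alpha 1 chain of type I collagen, had the lowest ratio of the 6, at -0.72 (-1.08 to -0.38), or -0.62 without the atypical members. Col1a2, the other type I chain, was at -0.41 (-0.66 to -0.17). None of the 6 was called. Of 12 measured other collagens, which the rule had not used, none was called, with a median of -0.28 (-0.20 without atypical members), beside 0.07 (-0.03) over all genes. Col6a1 was at -0.26 (-0.72 to 0.17) and Col14a1, a fibril-associated collagen, at 0.47 (-0.17 to 1.07).

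Proteoglycans, elastic fibre proteins and matrix enzymes held few calls. Among 7 measured small proteoglycans only Aspn was called, and not without the atypical members; Bgn, biglycan, was at -0.26 (-0.48 to -0.04). Of 23 elastic fibre and matrix glycoproteins none was called over all members, with a median of -0.18. Without the atypical members, 2 of them were called higher, Dpt (1.03), the collagen-binding dermatopontin, and Abi3bp (1.01), an extracellular matrix adaptor; over all members they were at 0.93 and 0.89. Sparc, the collagen-binding osteonectin, was at -0.28 (-0.48 to -0.08). Of 15 collagen folding and cross-linking genes, P4ha2, a prolyl hydroxylase subunit, was called lower over all members on 1 HFD UMI, and none without the atypical members. Of 17 matrix proteases and inhibitors, Timp3, an inhibitor of metalloproteinases, moved from 1.68 to -0.12 once the atypical members were left out. Timp3 stood at 3314 and 4481 CPM in endothelial barcodes.

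Among the identity genes named above, Clec3b was called lower in HFD. It encodes tetranectin, a secreted plasminogen-binding lectin (chromosome 9, 123150946 to 123157432, GRCm38, plus strand). In WT it stood at 1144 CPM, was found in 52 of 61 fibroblasts and had a per-fibroblast median of 925 CPM (range 0 to 4859). In HFD it stood at 427 CPM, was found in 14 of 24 and had a median of 365 CPM (range 0 to 1991). The log2 ratio was -1.42 (-2.10 to -0.82) with all members and -1.42 without the atypical ones. The per-fibroblast ranges overlap, and thinned to 1000 UMIs the shares with a UMI were 55.7% (42.4% to 68.5%) and 33.3% (15.6% to 55.3%). Clec3b had no UMI in the endothelial or macrophage barcodes of either library. On the adventitial list, 12 genes were measured over all members, with Clec3b lower, Ly6c1 higher (1.54, 0.30 to 2.68) and a median of -0.02. Leaving out the atypical members, 10 were measured, with Clec3b as the call and a median of -0.32.

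Fos, the AP-1 subunit induced within minutes of stimulation, was also lower in HFD fibroblasts (chromosome 12, 85473890 to 85477273, plus strand). It stood at 4289 CPM in the WT and 1596 CPM in the HFD fibroblasts, a log2 ratio of -1.43 (-1.76 to -1.11), and -1.49 without the atypical members. Its per-fibroblast median was 3047 CPM (range 0 to 21069) in WT and 448 CPM (range 0 to 8145) in HFD. Fos was lower in other cells of the HFD library too, at 496 against 2674 CPM in endothelial barcodes and 171 against 902 CPM over all other kept barcodes. Socs3, the feedback inhibitor of cytokine signalling, was lower by the same rule, at -1.51 (-2.85 to -0.42; -1.62 without the atypical members), as was Cyr61, a matricellular early gene, at -1.06 (-1.76 to -0.44; -1.20). Cyr61 stood at 928 and 121 CPM in endothelial barcodes. Jun, the partner of Fos, was at 0.04 (-0.30 to 0.37), and Junb was at -0.74 (-1.01 to -0.49), short of the fold. Ier5, another immediate early gene, was called higher at 1.22 (0.72 to 1.70). Of 23 measured AP-1 and immediate early genes, 2 were higher and 2 lower, with a median of 0.04, and without the atypical members 1 was higher and 3 lower of 22.

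Complement genes, many of them secreted by fibroblasts, included 2 lower calls among 9 measured, beside 2.33% of all measured genes, with a median of -0.55 beside 0.07. Without the atypical members there were again 2 of 9, beside 1.98%, with a median of -0.47 beside -0.03. C1s1, the C1s protease, stood at 447 CPM in the WT and 204 CPM in the HFD fibroblasts (-1.13, -2.16 to -0.25; -1.31 without the atypical members). Masp1, a protease of the lectin pathway, had 57 UMIs in WT and 2 in HFD (-2.16, -5.24 to -0.24; -2.03). Serping1 was at -0.01 (-0.30 to 0.27) and C3, the central component, at 0.42 (-0.06 to 0.88).

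Further named genes were lower in both sets. Fstl1, 1 of the 13 fibroblast markers, stood at 404 CPM in the WT and 111 CPM in the HFD fibroblasts (-1.86, -3.33 to -0.70; -1.95 without the atypical members). Hes1, a Notch target repressor, was at 346 and 111 CPM (-1.63, -3.11 to -0.47; -2.47), on 6 HFD UMIs and on 3 without the atypical members. Hes1 was lower in other cells of the HFD library too, at 468 against 627 CPM in endothelial barcodes. Over all other kept barcodes it stood at 7.17 against 26.4 CPM. Csrp1, a LIM protein of the actin cytoskeleton, was at 746 and 260 CPM (-1.52, -2.41 to -0.75; -1.46). Pdia3, a disulphide isomerase of the endoplasmic reticulum, was at 450 and 186 CPM (-1.28, -2.37 to -0.36; -1.41). Psmb6, a proteasome subunit, was at -1.85 (-3.75 to -0.44; -2.61), and Smdt1, a subunit of the mitochondrial calcium uniporter, at -1.81 (-3.46 to -0.54; -2.27). They rested on 4 and 5 HFD UMIs, and on 2 and 3 without the atypical members. In that smaller set Psmb6 stood at 43.7 CPM in HFD, under the floor of 65.5 CPM. Wif1, a secreted Wnt inhibitor, had 48 UMIs in 8 WT fibroblasts and none in HFD. Set at a floor of 3 UMIs over the HFD members it would be 2.50-fold lower. The counting interval of its log2 ratio reached up to -0.97.

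Chemokine ratios rested on few cells. Of 17 measured inflammatory cytokines and chemokines, 4 were called higher (Ccl7, Tnfaip6, Csf1, Vcam1) and 2 lower (Cxcl2, Cxcl10). All measured genes gave 5.02% and 2.33%, and the list's median was -0.06. Without the atypical members, 2 of 16 were higher (Tnfaip6, Csf1) and 4 lower (Cxcl1, Cxcl2, Cxcl10, Ptgs2). These stood beside 3.83% and 1.98% of all measured genes, with a list median of -0.49. Cxcl2 stood at 743 CPM in the WT and 148 CPM in the HFD fibroblasts (-2.32, -3.55 to -1.32; -2.93 without the atypical members), but 7 WT fibroblasts held it and 1 of them had 52.0% of its UMIs. Cxcl10, an interferon-induced chemokine, was at -1.72 (-3.63 to -0.31; -2.64), with 65.5% of its WT UMIs in 1 fibroblast. Cxcl10 was lower in other cells of the HFD library too, at 134 against 274 CPM in endothelial barcodes. Over all other kept barcodes it stood at 4.79 against 25.1 CPM. Cxcl3, called lower in both sets, had 73 UMIs in 2 WT fibroblasts and none in HFD. Cxcl1 was at -0.22 (-0.55 to 0.09) with all members and was called lower, at -1.17 (-1.63 to -0.73), without the atypical ones, among which 1 HFD member held 47.3% of its HFD UMIs. Ccl7 was at 1.02 (0.64 to 1.4) and called higher, was at 0.98 without the atypical members and short of the fold, and 1 HFD fibroblast held 56.4% of its HFD UMIs. Ccl2 was lower by summed UMIs, at -0.68 (-1.06 to -0.32), without a call. Its share of fibroblasts with a UMI went the other way, at 14.8% (6.98% to 26.2%) in WT and 37.5% (18.8% to 59.4%) in HFD after thinning. In endothelial barcodes thinned Ccl2 shares were 5.92% and 12.6%. No order of the libraries is read from Ccl2.

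Higher genes that held in both sets included receptors and secreted factors. Tnfaip6, a hyaluronan-binding protein induced by inflammatory cytokines, stood at 299 CPM in the WT and 798 CPM in the HFD fibroblasts (1.42, 0.87 to 1.94; 1.34 without atypical members). It was found in 33 of 61 and 14 of 24 fibroblasts, with per-fibroblast medians of 140 and 470 CPM and maxima of 2736 and 4378 CPM. Mdk, the heparin-binding growth factor midkine, stood at 107 and 353 CPM (1.71, 0.83 to 2.55) and was found in 23 of 61 and 13 of 24. Il1r1, the interleukin-1 receptor, was at 1.45 (0.34 to 2.48; 1.62 without the atypical members), Osmr, the oncostatin M receptor, at 1.76 (0.41 to 3.0; 1.66), and Itga5, the alpha chain of the fibronectin receptor, at 1.59 (0.17 to 2.88; 1.66). These 3 were the called genes among 17 measured receptors, beside 5.02% of all measured genes called higher, and the list's median was 0.16. They were 3 of 15 without the atypical members, beside 3.83%, with a median of 0.27. Csf1, the growth factor of macrophages, was at 1.13 (0.10 to 2.07). Each rested on 8 to 43 HFD UMIs.

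Higher calls were also ranked by how far the interval bound nearest 1 lay from 1. Outside the lists and the markers of other cell types, the highest over all members included Bcr, Kmt2e and Plpp3. Arid5b and Ifi203 stood among the highest without the atypical members. Plpp3 was at 1.60 and lost its call without the atypical members, at 0.94. It stood at 3540 and 3146 CPM in endothelial barcodes. Bcr stood at 92.9 CPM in the WT and 612 CPM in the HFD fibroblasts (2.72, 1.97 to 3.47; 2.39 without atypical members), and at 1297 and 1722 CPM in endothelial barcodes. Arid5b, a chromatin-binding protein, was at 1.99 (1.05 to 2.88; 2.36), Kmt2e at 1.95 (1.14 to 2.74; 1.54) and Ifi203, an interferon-inducible gene, at 1.81 (1.01 to 2.57; 1.95). Metallothioneins, which bind zinc and copper, were just under the fold over all members, with Mt1 at 1986 and 3674 CPM (0.89, 0.65 to 1.12) and Mt2 at 0.99 (0.36 to 1.58). Without the atypical members they were called higher, at 1.11 and 1.21. The median fibroblast held Mt1 at 633 CPM in WT (range 0 to 9449) and 2999 CPM in HFD (range 0 to 12000), and these ranges overlap. Over the other kept barcodes Mt1 stood at 1285 and 1258 CPM. Apoe, the lipid carrier, was called over all members at 1.19 and was at 1.0 without the atypical ones, short of the call.

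**Figure D4:**
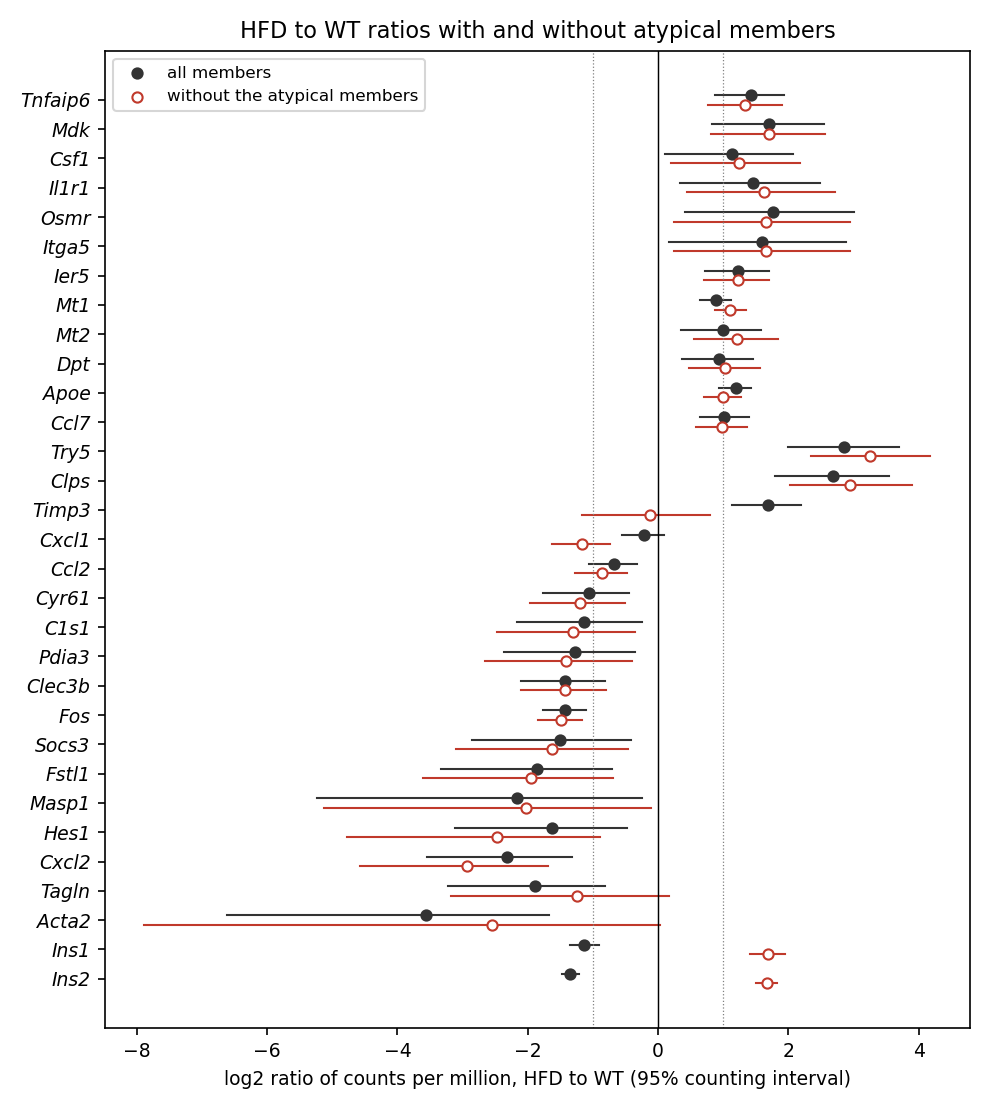
Points give the log2 ratio of HFD to WT with its 95% counting interval, filled for all members and open without the atypical ones; the solid line marks no difference and dotted lines a 2-fold difference. Clec3b (-1.42) and Fos (-1.43) stay left and Tnfaip6 (1.42) and Mdk (1.71) right of the solid line in both sets, whereas Timp3, Ins1 and Ins2 change side.

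RNA of other pancreatic cells differed between the libraries alongside these ratios. Of 11 acinar enzyme genes, all measured, 9 were called higher in HFD fibroblasts, beside 5.02% of all measured genes, and the same 9 without the atypical members, beside 3.83%. Try5, a trypsin, was at 2.85 (2.0 to 3.70), and Clps, the lipase cofactor, at 2.68 (1.80 to 3.55); trypsin genes are near-identical copies between which reads can be split. Outside the atypical set, summed acinar CPM ran from 195 to 15785 per WT fibroblast, with a median of 1038, and from 1487 to 20805 per HFD fibroblast, with a median of 3493. The other kept barcodes, any acinar cells included, stood at 1384 and 1266 CPM. Try5 was also higher in other HFD cells, at 266 against 36.7 CPM in endothelial and 588 against 118 CPM in macrophage barcodes. Its beta values were 88.6 against 9.17 CPM. Clps (194 against 56.0 CPM) and Ctrb1 (476 against 192 CPM) were higher in endothelial barcodes, and also in beta barcodes. In macrophage barcodes Clps and Ctrb1 were lower in HFD, at 322 against 634 and 816 against 1318 CPM. Insulin UMIs took a median of 0.433% of a WT and 1.34% of an HFD fibroblast. With all members Ins2 was lower in HFD (-1.35), since 1 WT member held 88.0% of its WT UMIs, and without the atypical members it was higher (1.67), as were Ins1 (1.69) and Iapp (2.35). Ins2 was also higher in other HFD barcodes, at 23577 against 17401 CPM in endothelial and 10592 against 4546 CPM in macrophage barcodes. In beta barcodes it stood at 413083 against 434829 CPM. Gcg was lower at -6.63, with 99.5% of its WT UMIs in 1 member. The part of this RNA in the other ratios was not tested.

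Endothelial, pericyte and stellate calls over all members rested mostly on the atypical barcodes. Ccl21a (the gene with identifier ENSMUSG00000094686), Fabp4 and Emcn had 46, 25 and 24 UMIs in HFD and none in WT, and outside the atypical members they had 0, 1 and 0. Plvap, of endothelial diaphragms, was at 3.40 and remained called at 1.5 without the atypical members. Rgs5 was called higher at 2.96 over all members and had no UMI without the atypical ones. Acta2 was called lower at -3.56 (-6.62 to -1.68), then at -2.54 (-7.88 to 0.03), without a call. Tagln, the actin-binding transgelin, moved from -1.89 to -1.25, also losing its call. No gene of the activated stellate and myofibroblast list was called without the atypical members, with a median of -0.37 over 10 measured genes.

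**Figure D5:**
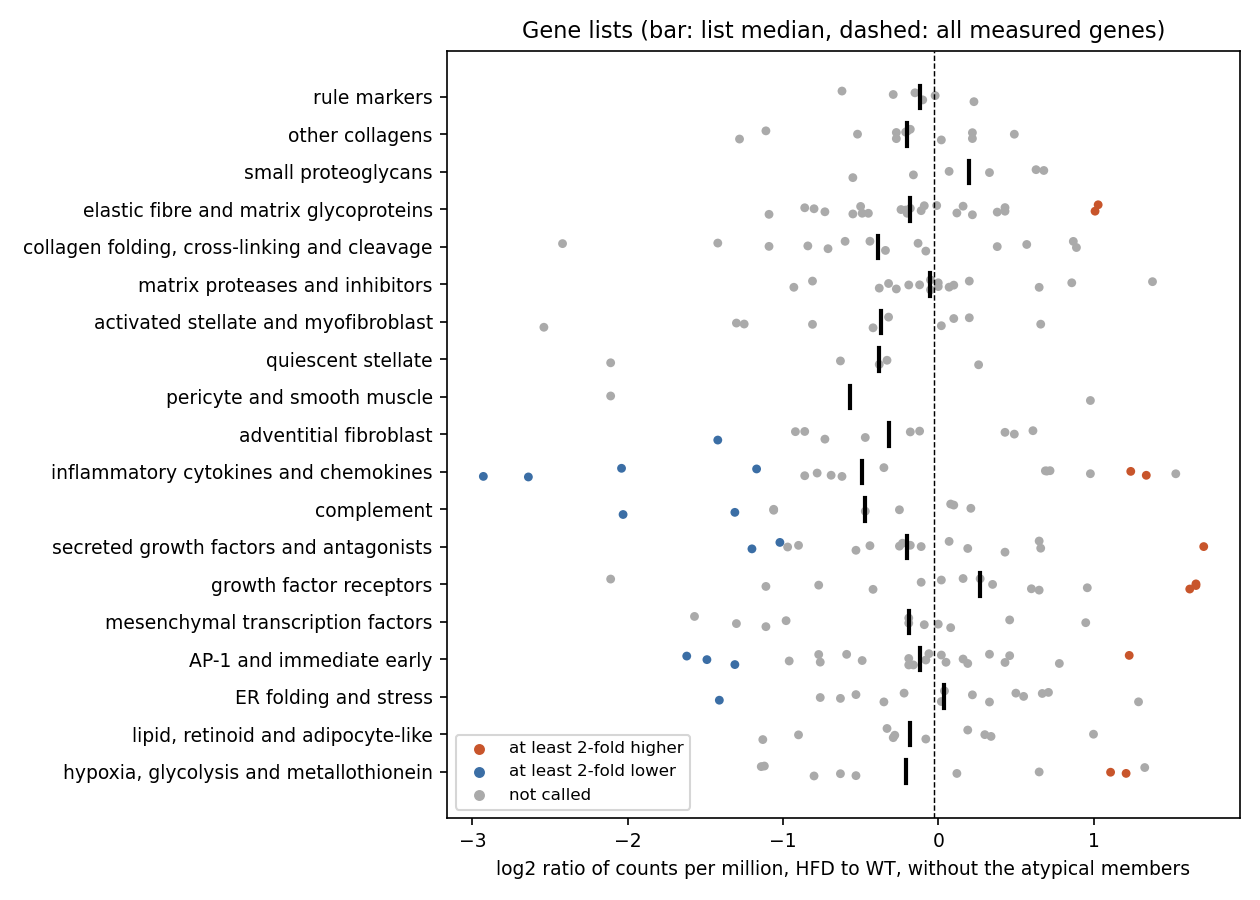
Each point is 1 measured gene of a list, placed by its log2 ratio of HFD to WT without the atypical members and coloured by its call; bars give list medians and the dashed line the median of all measured genes (-0.03). The inflammatory list (median -0.49) holds the most calls, 2 higher and 4 lower of 16 measured genes. Called genes are fewer in the other lists, and complement (median -0.47) and growth factor receptors (0.27) hold calls on opposite sides.

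Remaining lists held few or no calls. Of 10 measured hypoxia, glycolysis and metallothionein genes none was called over all members, with a median of 0.09, and Mt1 and Mt2 were the calls without the atypical members. Of 11 measured lipid and retinoid genes, Fabp4 and Apoe were higher and Rbp4 lower over all members and none was called without the atypical ones. Lpl, the lipoprotein lipase, was found in 51 WT and 15 HFD fibroblasts, at -0.20 (-0.77 to 0.33). Of 11 measured mesenchymal transcription factors none was called, with a median of -0.13 (-0.19 without the atypical members). Of 17 measured secreted growth factors and antagonists, Mdk was higher and Cyr61 lower, with a median of -0.18. Without the atypical members Mdk was higher and Cyr61 and Igfbp3 (-1.02) lower of 16, with a median of -0.20. Of 15 endoplasmic reticulum folding genes, Pdia3 was the 1 lower call in both sets, with a median of 0.13 (0.04). No gene of the mesothelial, antigen-presenting or cycling lists was measured, and the cycling genes had 21 UMIs in all WT and 5 in all HFD fibroblasts.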

How the data were processed

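Islet single-cell RNA libraries (10x Genomics 3-prime v3) of 1 WT and 1 HFD group were analysed. The authors deposited, for each barcode, the raw UMI counts of all genes; per the labels, they ran Cell Ranger (v3.0.2) against mm10. The barcodes numbered 3895 in WT and 8951 in HFD, and kept barcodes other than fibroblasts held a median of 25057 and 11363 UMIs. The study's later maximum of 15000 UMIs had not been applied to these counts and was tried as an alternative.

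Members were found by the rule given above, and the members and gene lists (22 lists of 396 entries, 6 of them unmatched by symbol) were chosen with earlier results of these data known. Counts were summed over members and scaled to CPM. Ratios carry exact conditional Poisson 95% intervals, shares exact Clopper-Pearson intervals (scipy v1.17.1), and a count of 0 was read against a floor of 3 UMIs over a group's members. With 1 library per group there was no test. Genes to name were taken by rule from the 20 highest identity ratios, 12 higher and 12 lower calls, members of the lists, and markers of other cell types. Not every such gene is named in the text. The 12 calls were those whose interval bound nearest 1 lay farthest from 1, taken over all members and again without the atypical ones. Genes sharing sequence with copies could be split by the counting. Doublets were not removed. Scrublet, run in scanpy (v1.11.5), set a threshold of its own that marked 12 WT and 0 HFD barcodes, too few to be used; leaving out the 121 and 641 highest scores (0.8% per 1000 barcodes) removed no member. Members were clustered with Leiden (igraph v0.11.9) on 1000 variable genes without the selecting genes, hormones and mitochondrial genes. Shares were compared after thinning each barcode to 1000 UMIs. TMM scaling used edgeR (v4.0.16). The scripts were tested on simulated data with known ratios. Coordinates are those of GENCODE on GRCm38, and promoter windows those of RefSeq, for which Ccl2 and Ccl7 had no entry.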

Additional observations from a re-analysis of the deposited data

How the results depend on the processing

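No paired analysis was possible because each group held 1 library, and for the same reason no library could be left out. Over the alternatives, 318 list medians stayed within their spread and 4 moved, all under the removal of members with 4 markers of another cell type (adventitial to -1.45, inflammatory to -1.08, small proteoglycans to -1.29, hypoxia to -0.89), and of the named gene ratios 257 stayed, 46 moved and 35 changed sign. The sign changes were those of Timp3 and of hormone-cell genes. The WT share was 8.01% with at most 15000 UMIs per barcode, since that limit removes deep beta barcodes from the denominator, and the HFD share was 0.190% with at least 1000 genes. Leaving out members with 4 markers of another cell type, acinar included, kept 25 WT and 3 HFD fibroblasts (0.962% and 0.0411%), with 39 higher and 17 lower genes, of which 9 and 5 were shared with the main calls. Thinning to 1000 UMIs left 667 measured genes, 24 higher and 25 lower, of which 13 and 17 were shared with the main calls, and without the atypical members 27 and 23. Requiring 50 UMIs per gene left 55 higher genes. Groups of fibroblasts numbered 3 at resolution 0.5. Leaving out the atypical members gave log2 ratios of -0.12 for Timp3, 1.01 for Gcg, 1.67 for Ins2, 1.69 for Ins1 and 0.16 for Chga. With the atypical members left out, equal weight per fibroblast gave -0.15 for Timp3, 1.83 for Gcg, 1.54 for Ins2 and 1.52 for Ins1, and thinning gave -0.77 for Timp3, 1.59 for Ins2 and 1.43 for Ins1. With at most 15000 UMIs, and equally with insulin under 10%, Gcg was at 0.96, Ins2 at 1.57 and Ins1 at 1.56. Without the deepest member of each library Gcg was at 1.10, Ins2 at 1.63, Ins1 at 1.62 and Chga at 0.10. Leaving out members with 4 markers of another cell type gave -0.63 for Timp3, 1.5 for Ins2 and 1.94 for Ins1. With acinar markers not used it gave -0.10 for Timp3, 0.78 for Gcg, 1.66 for Ins2, 1.64 for Ins1 and 0.20 for Chga. Timp3 was at -0.10 with 5 of 6 selecting genes. Equal weight over all members gave 0.40 for Ins2 and 0.51 for Ins1, and thinning over all members gave 0.47 and 0.77. The causes were not tested beyond the construction of each alternative. Clec3b stayed between -1.73 and -1.20, Fos between -3.33 and -1.30 and Bcr between 2.08 and 4.68. The depth of 53897 HFD UMIs sets the floor of 55.7 CPM, so genes below about that level in HFD could not be told from absence.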
